A study of Mus musculus with 4 samples.

Results

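The genes described here are 47 genes of striated muscle, measured in medullary thymic epithelial cells (mTECs) of mice labelled as wild type or as lacking *Sirt6*, a gene for a nuclear deacetylase. They were chosen by name as myogenic transcription factors, sarcomere proteins, subunits of the muscle acetylcholine receptor with its partners, and genes of calcium release and energy supply. All 47 were found among the 23337 gene symbols of the count table. RNA was sequenced from mTECs (CD45-EpCAM+UEA-1+Ly51-) of C57BL/6 mice at 4 weeks of age, with 2 libraries labelled wild type (WT) and 2 labelled Sirt6-/-. Per the study's methods, the latter mice carried *Sirt6* loxp/loxp alleles and *Foxn1*-Cre, which acts in thymic epithelial cells, and are called *Sirt6* cKO here, while the controls lacked Cre. The labels do not say how many animals went into a library, so the p-values below measure the spread between these libraries only. In sorted bulk RNA, fewer cells of a type and less RNA per cell cannot be told apart.

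mTECs transcribe many genes whose products are otherwise made in peripheral tissues, and present these self-antigens to developing T cells. Muscle antigens belong to this repertoire. A small population of mTECs that transcribes *Myog* and genes of the contractile apparatus is known in the mouse thymus, and muscle-like myoid cells have been described in the thymic medulla of several species. The muscle acetylcholine receptor is the main autoantigen of myasthenia gravis, a disease that often goes with changes of the thymus. Myogenic factors of the MyoD family (*Myf5*, *Myod1*, *Myog*, *Myf6*) are basic helix-loop-helix proteins that bind E-box sequences, often together with MEF2 proteins, and switch on the genes of the sarcomere and of the neuromuscular junction.

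The libraries held between 61102704 and 65907745 counts. For *Sirt6* itself the WT libraries held 622 and 755 counts, and those labelled *Sirt6* cKO held 882 and 835, so the targeted gene was not lower there. The counts cover the whole gene, and reads of the deleted part were not analysed here. The study reported *Sirt6* as inactivated, citing genotyping, a western blot of cultured thymic epithelial cells and quantitative PCR of sorted mTECs. Each direction given below rests on the labels. The 10 markers of thymic epithelium summed to 21600 and 22300 TPM (a level scaled for transcript length and library) in WT and to 23500 and 23400 TPM in *Sirt6* cKO, a sum held mostly by *H2-Aa*, and none of them was at 0. Of the 10, *Epcam*, *Aire* and *Foxn1* were higher at an unadjusted p of 0.05 in edgeR's test, with log2 changes of 0.48, 0.65 and 0.83, and the other 7 did not pass it. DESeq2 gave *Foxn1* an adjusted p of 0.0308. Markers of other cells were also present and moved with the groups in part. The 8 markers of macrophages and dendritic cells summed to 9770 and 6100 TPM in WT and to 3780 and 4080 TPM in *Sirt6* cKO, with 3 of 8 lower at an unadjusted p of 0.05 (*Lyz2*, *Cd68* and *Emr1*). *Lyz2* held most of the sum, with 9530 and 5940 TPM in WT against 3660 and 3960 TPM in *Sirt6* cKO. Of the 8, 6 had a log2 change below 0 and 2 above (*Itgam* and *Zbtb46*). Of the 9 tuft cell markers in the table, 6 were lower at an unadjusted p of 0.05. The 9 summed to 589 and 697 TPM in WT and to 273 and 278 TPM in *Sirt6* cKO. *Gnb3* was the largest part, with 326 and 385 TPM in WT against 126 and 142 TPM in *Sirt6* cKO. Of the 9, 7 had a log2 change below 0 and 2 above (*Pou2f3* at 0.24 and *Dclk1* at 0.36). Of the 8 thymocyte markers 0 passed that p in edgeR, and 0 passed an adjusted p with edgeR or DESeq2. Those 8 summed to 1060 and 762 TPM in WT and 949 and 587 TPM in *Sirt6* cKO. B cell markers summed to 162 to 244 TPM, endothelial markers to 41.8 to 69.5 TPM and fibroblast markers to 547 to 689 TPM over the libraries, and of these *Lum* was lower. The part of these shifts in the results below was not tested.

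Every member was detected. Only *Tnnc2* had 0 counts in a library, *Sirt6* cKO 1, and 3 counts of *Tcap* in WT 2 were the only other value at or under 3 counts. The members together made up 0.0597% and 0.0847% of all TPM in the WT libraries and 0.0698% and 0.0723% in *Sirt6* cKO. Mean levels over the 4 libraries ran from 0.335 TPM for *Ryr1*, the calcium release channel of muscle, to 141 TPM for *Actn3*, the alpha-actinin of fast fibres. Of the 47 genes, 18 had a mean over 10 TPM and 3 a mean under 1 TPM. After *Actn3*, the highest means were those of *Myog* (70.9 TPM), *Tnnt2* (61 TPM), *Tnni1* (60.5 TPM), *Mylpf* (47.4 TPM), *Myl1* (31.1 TPM), *Cacna1s* (28.6 TPM), *Des* (28.5 TPM), *Myh7* (25.8 TPM) and *Tnnc1* (16.6 TPM). All neighbours in this order of 10 had overlapping libraries. *Tnnt2*, for example, spanned 44.0 to 80.9 TPM and *Tnni1* 50.7 to 83.7 TPM. WT 2 was the highest library, in normalized counts (CPM, scaled by the TMM factor of the library), for 23 of the 47 members, followed by *Sirt6* cKO 2 for 10, *Sirt6* cKO 1 for 8 and WT 1 for 6.

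**Figure D1:**
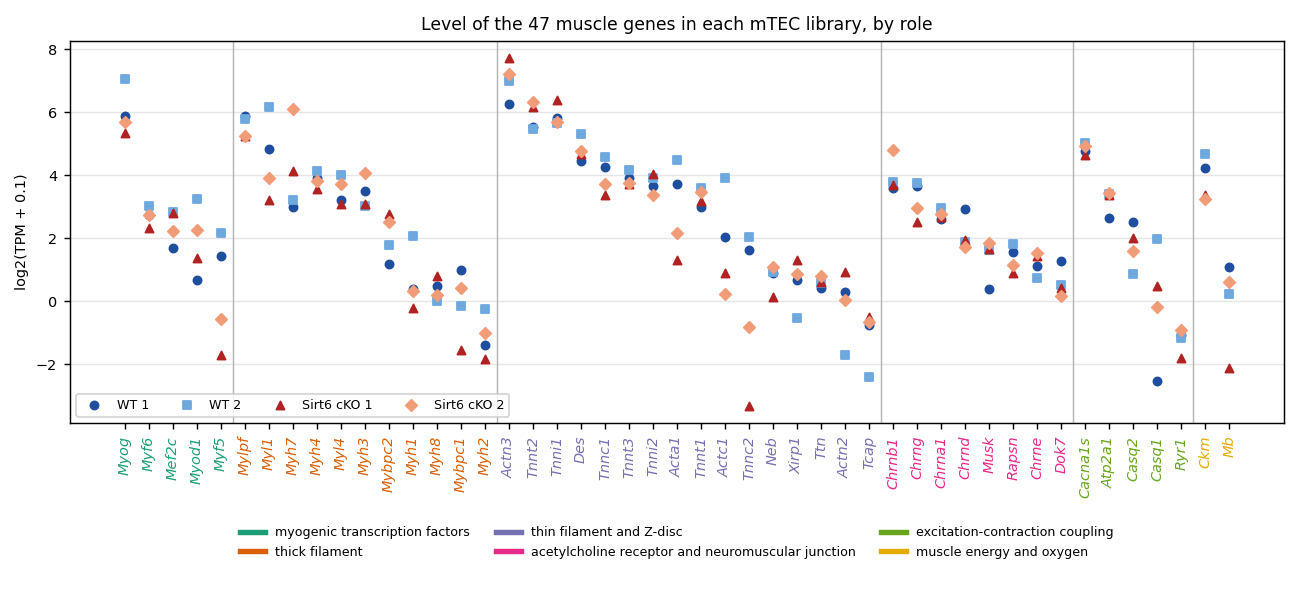
Level of each of the 47 muscle genes in each library, as log2(TPM + 0.1) on the vertical axis, with genes grouped by role and ordered by mean level within a role. Each point is 1 library. *Actn3* and *Myog* have the highest means, with *Myog* at 133 TPM in WT 2 and 40.3 to 58.3 TPM in the other libraries. WT 2 lies above the other libraries for all 5 myogenic factors.

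All 47 members passed the filter on low counts and were tested in 1 edgeR quasi-likelihood fit over 18547 genes. At an unadjusted p of 0.05, 6 members were lower in *Sirt6* cKO (*Acta1*, *Myl1*, *Ckm*, *Myf5*, *Actc1* and *Chrng*) and 4 were higher (*Myh7*, *Tnnt2*, *Mybpc2* and *Actn3*). These 10 were 21.3% of the members, where 8.58% of all genes tested were called so. The members were chosen with earlier results of these data known, so these shares are a description only. In single directions, 12.8% of the members were lower against 3.32% of all genes, and 8.51% were higher against 5.27%. Of the calls over all genes 61.4% were higher, a share that was 48.4% when scaled by the upper quartile and 46.2% by total counts, and the members then had 7 lower and 3 higher calls in each. The median log2 change of the members was -0.21, with 30 below 0 and 17 above, and that of all genes tested was -0.005. None of the 47 (0 members) passed an adjusted p of 0.05 in edgeR's test, which only 1 gene of all (0.00539%) passed. DESeq2, the tool of the study, gave 3 members an adjusted p under 0.05, *Myh7* (0.0039), *Acta1* (0.0143) and *Myl1* (0.0293), where it called 1.88% of the genes it tested. The groups did not overlap for 15 members that were lower and 10 that were higher, or 25 of 47 in all. Among all genes tested, 20.3% were separated downwards and 21.6% upwards, or 41.9% in all.

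The counts of called members changed when a library was left out, and so did those over all genes. Without WT 2, 1 member and 477 of all genes were lower, and without *Sirt6* cKO 1 these were 1 and 332, against 6 and 615 with all libraries. Without WT 1 they were 7 and 613. A group of 1 library gives a weaker test, and without *Sirt6* cKO 1 the log2 changes of the 6 lower members remained between -3.11 (*Actc1*) and -0.72 (*Chrng*). Without WT 2 they were between -2.71 (*Myf5*) and -0.90 (*Chrng*), with *Actc1* at -1.50 and *Myl1* at -1.21. The higher members numbered 1 without WT 1, where 1152 of all genes were higher, against 4 and 977 with all libraries. There were 2 without *Sirt6* cKO 1, where 394 of all genes were higher, and 2 without *Sirt6* cKO 2, where 684 were. The median log2 change of the members was 0.02 without WT 2 and -0.49 without *Sirt6* cKO 2.

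**Figure D2:**
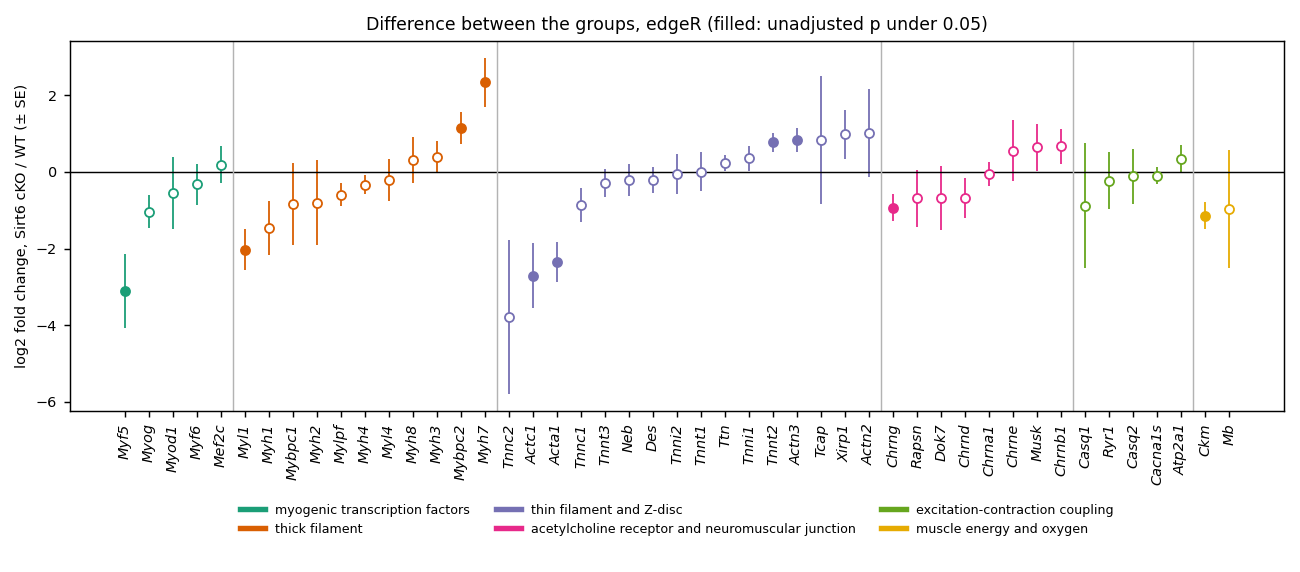
Log2 fold change of each member, *Sirt6* cKO over WT, with its standard error (vertical axis), from edgeR's fit over all genes, grouped by role. Filled points had an unadjusted p under 0.05: 6 members lie below 0 and 4 above.

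Among the myogenic transcription factors, *Myf5* was lower and the other 4 did not pass the test. *Myf5*, which marks committed muscle precursors, lies on chromosome 10 of GRCm38 (107482908 to 107486134), next to *Myf6*. It had 164 and 264 counts in WT against 12 and 36 in *Sirt6* cKO. Both *Sirt6* cKO libraries were far below both WT libraries. Mean CPM was 3.33 ± 1.16 in WT and 0.38 ± 0.256 in *Sirt6* cKO (SD, n = 2 each), with a log2 change of -3.12 (SE, the standard error, 0.97, with an adjusted p of 0.541 in edgeR's test). It no longer passed the unadjusted p without WT 2 or without *Sirt6* cKO 1. *Myog*, which drives terminal differentiation and was the most abundant of the family per length, had 2607 and 5630 counts in WT against 1655 and 2239 in *Sirt6* cKO. The groups did not overlap, but the WT libraries differed by more than WT 1 did from *Sirt6* cKO 2, and the log2 change of -1.04 (SE 0.43) missed the unadjusted p. Without WT 2 it was -0.35, and without WT 1 it was -1.53. *Myog* did pass the unadjusted threshold with DESeq2, the other scalings and filters, the replicate block and limma on log2(TPM + 1). Among the alternatives with all 4 libraries, it missed that threshold only with the other limma fit. *Myod1*, the other commitment factor, had 84 and 492 counts in WT against 128 and 256 in *Sirt6* cKO, so that both *Sirt6* cKO libraries lay between the WT libraries. Its log2 change was -0.56 (SE 0.94) and turned to 1.25 without WT 2. *Myf6*, a factor of late differentiation, had 245 and 284 counts in WT against 169 and 242 in *Sirt6* cKO (log2 change -0.32, SE 0.53). *Mef2c*, a MADS-box partner of these factors that lymphocytes and endothelial cells also express, had 603 and 1293 counts in WT against 1218 and 859 in *Sirt6* cKO (0.19, SE 0.48). WT 2 was the highest library for all 5 factors.

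Of the 11 members of the thick filament, 1 was lower and 2 were higher. *Myl1*, the alkali light chain of fast myosin, lies on chromosome 1 (66924295 to 66945404). It had 784 and 1918 counts in WT against 256 and 391 in *Sirt6* cKO. The groups did not overlap, and WT 2 stood well above WT 1. Mean CPM was 21.1 ± 12.8 in WT and 5.17 ± 1.31 in *Sirt6* cKO (SD, n = 2 each), with a log2 change of -2.03 (SE 0.54). Without WT 2 it was -1.21 and without *Sirt6* cKO 1 it also missed the unadjusted p. Of the 50-base words of its longest transcript, 23.4% also occur in the annotated pseudogene *Mylf-ps*. *Mylpf*, the regulatory light chain of fast myosin, had 1339 and 1196 counts in WT against 795 and 830 in *Sirt6* cKO, with replicates close together in both groups (log2 change -0.59, SE 0.29, above the unadjusted threshold). *Mybpc2*, the fast form of myosin-binding protein C (chromosome 7, 44501699 to 44524656), overlaps exons of *Gm44646* on the other strand by 192 bases. It had 240 and 350 counts in WT against 669 and 594 in *Sirt6* cKO. It was 1.15 higher on the log2 scale (SE 0.41), and of the single-library omissions it passed the unadjusted p only without WT 2. The slow form, *Mybpc1*, had 222 and 91 counts in WT against 27 and 144 in *Sirt6* cKO, which overlapped. *Myl4*, the embryonic and atrial light chain, gave -0.21 (SE 0.54).

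The heavy chains of myosin set the speed of a fibre, and their makeup differed between the libraries. *Myh7*, the heavy chain of slow fibres and of the heart ventricle, lies on chromosome 14 (54970684 to 54994626). Its exons overlap those of genes on the other strand, *Mhrt* among them, by up to 523 bases. *Myh7* had 1426 and 1587 counts in WT, while *Sirt6* cKO 1 had 2949 and *Sirt6* cKO 2 had 12162. Both *Sirt6* cKO libraries were above WT, and most of the difference came from 1 of them. The log2 change of 2.35 (SE 0.64, DESeq2 adjusted p = 0.0039) was 1.03 without *Sirt6* cKO 2, and it missed the unadjusted p without WT 1. Of the 6 heavy chains among the members, *Myh7* made up 21.1% and 22.8% of the summed TPM in WT and 43.7% and 67.4% in *Sirt6* cKO. *Myh4*, the chain of the fastest fibres, made up 41.0% and 43.0% in WT and 29.1% and 13.7% in *Sirt6* cKO, although its own counts were 2749 and 2974 against 1957 and 2451 (log2 change -0.33, SE 0.24). *Myh3*, the embryonic chain, made up 30.3% and 19.9% in WT and 20.8% and 16.4% in *Sirt6* cKO. *Myh1* (fast), *Myh2* (fast) and *Myh8* (perinatal) each stayed at or below 10.2% of the sum in every library. Words of 50 bases shared with other genes made up 26.7% of *Myh1*, 26.9% of *Myh2*, 21.4% of *Myh8*, 18.9% of *Myh4* and 22.2% of *Myh7*, so the division of reads between these paralogs is uncertain. *Myh6*, the atrial heavy chain and the neighbour of *Myh7*, shares words with it and had 440 and 407 counts in WT, while *Sirt6* cKO 1 had 313 and *Sirt6* cKO 2 had 2357. *Sirt6* cKO 2 was thus the highest library for both, and by CPM it was the highest for 6 of 9 heart muscle markers. *Gata4*, a transcription factor of the heart and other organs, had 49.0 CPM there and 9.44 to 21.0 CPM in the other libraries, and *Nkx2-5* and *Hand2*, both also heart factors, were highest there at 0.78 and 0.686 CPM. Of the rest, *Nppb* was highest in WT 1, and *Nppa* and *Tnni3* were highest in WT 2. *Nppa* had 3.83 and 5.44 CPM in WT against 1.56 and 1.87 CPM in *Sirt6* cKO, without overlap. *Nppb* had 3.8 and 2.61 CPM in WT against 1.94 and 1.86 CPM in *Sirt6* cKO, also without overlap. The 9 heart muscle markers summed to 111 and 142 TPM in WT and to 134 and 192 TPM in *Sirt6* cKO. None of these 9 (0 markers) passed an unadjusted p of 0.05 in edgeR's test or an adjusted p in DESeq2, and none was at 0 in all libraries. Their part in the result for *Myh7* was not tested.

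**Figure D3:**
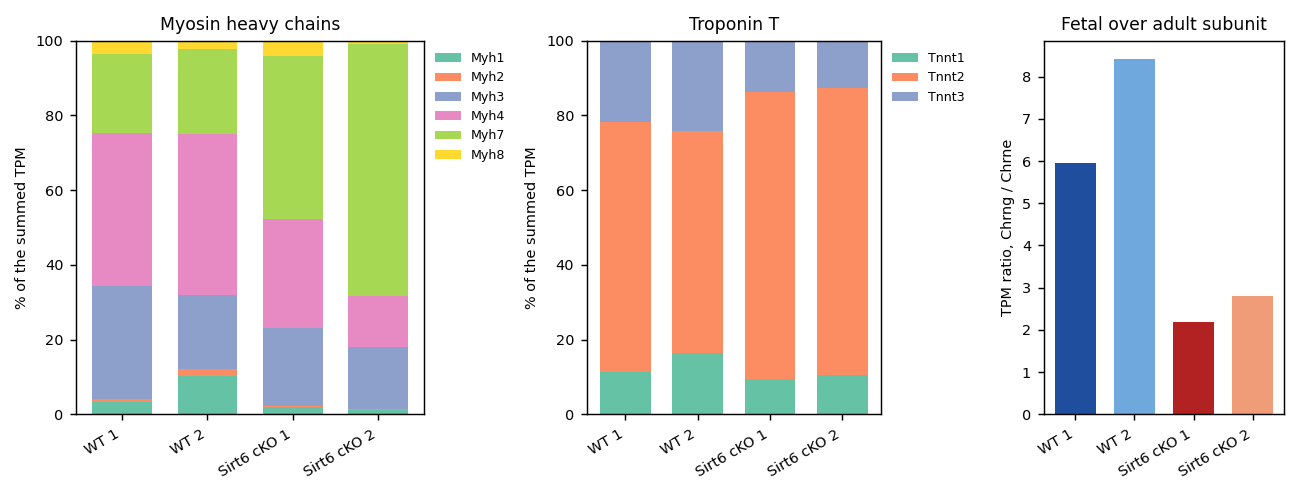
Makeup of 2 isoform families and the ratio of receptor subunits in each library, computed from TPM. The left and middle panels show each gene's percentage of the summed TPM of 6 myosin heavy chains and of 3 troponin T genes, and the right panel the ratio of *Chrng* to *Chrne*. *Myh7* takes 43.7% and 67.4% of the heavy chains in *Sirt6* cKO against 21.1% and 22.8% in WT.

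Of the 16 members of the thin filament and Z-disc, 2 were lower and 2 were higher. The lower genes were both striated actins. *Acta1*, the actin of mature skeletal muscle (chromosome 8, 123891769 to 123894751), had 563 and 902 counts in WT against 96 and 185 in *Sirt6* cKO. The groups were well apart. Mean CPM was 11.4 ± 3.94 in WT and 2.24 ± 0.915 in *Sirt6* cKO (SD, n = 2 each), with a log2 change of -2.35 (SE 0.53). It was the only one of the 10 called members that passed the unadjusted p with each of the 4 libraries left out in turn, at -2.87 to -1.94. *Actc1*, the actin of heart and of developing skeletal muscle (chromosome 2, 114047282 to 114053548), had 168 and 592 counts in WT against 68 and 44 in *Sirt6* cKO, a log2 change of -2.71 (SE 0.85). Without WT 2 it was -1.50, and it passed the unadjusted p only without WT 1. The 2 actins together had 17.0 and 37.0 TPM in WT and 4.16 and 5.48 TPM in *Sirt6* cKO.

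The higher genes of this group were a troponin T and an alpha-actinin. *Tnnt2*, the troponin T of the heart and of embryonic skeletal muscle (chromosome 1, 135836354 to 135852260), had 1589 and 1442 counts in WT against 2324 and 2708 in *Sirt6* cKO. Replicates lay close together, and mean CPM was 23.5 ± 1.14 in WT and 40.4 ± 2.63 in *Sirt6* cKO (SD, n = 2 each). The log2 change was 0.78 (SE 0.25) and stayed between 0.68 and 0.85 when a library was left out, although none of those 4 fits passed the unadjusted p. *Tnnt2* made up 66.9% and 59.6% of the troponin T TPM in WT and 76.7% and 76.9% in *Sirt6* cKO. The fast form, *Tnnt3*, made up 21.7% and 24.1% in WT and 13.8% and 12.7% in *Sirt6* cKO, with counts of 465 and 550 against 380 and 421. *Actn3* (chromosome 19, 4861216 to 4877909) had 6588 and 10346 counts in WT against 16713 and 12428 in *Sirt6* cKO. Mean CPM was 132 ± 43.8 in WT and 235 ± 58.8 in *Sirt6* cKO (SD, n = 2 each), with a log2 change of 0.84 (SE 0.31) that was 0.51 without WT 1. Its relative *Actn2* stayed at or below 1.80 TPM in every library.

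The remaining thin filament and Z-disc genes did not pass the test. *Tnnc2*, the calcium sensor of fast fibres, had 63 and 80 counts in WT, while *Sirt6* cKO 1 had 0 and *Sirt6* cKO 2 had 10 (log2 change -3.79, SE 2.01). Of its 800 exon bases, 592 overlap exons of *Ube2c* on the other strand, and reads of both genes may not be separated. *Tnnc1*, the slow and cardiac form, had 410 and 475 counts in WT against 200 and 268 in *Sirt6* cKO, without overlap (-0.87, SE 0.44). *Tnni1*, the slow inhibitory troponin, had 1831 and 1573 counts in WT against 2520 and 1648 in *Sirt6* cKO (0.36, SE 0.33). *Des*, the intermediate filament desmin, which smooth muscle shares, had 1421 and 2416 counts in WT against 1520 and 1697 in *Sirt6* cKO, and turned from -0.21 to 0.25 without WT 2. The giant proteins differed little beside their errors, with log2 changes of 0.24 for *Ttn* (SE 0.21) and -0.21 for *Neb* (SE 0.42). *Tnnt1*, *Tnni2*, *Tcap* and *Xirp1* ranged from -0.05 to 0.98.

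**Figure D4:**
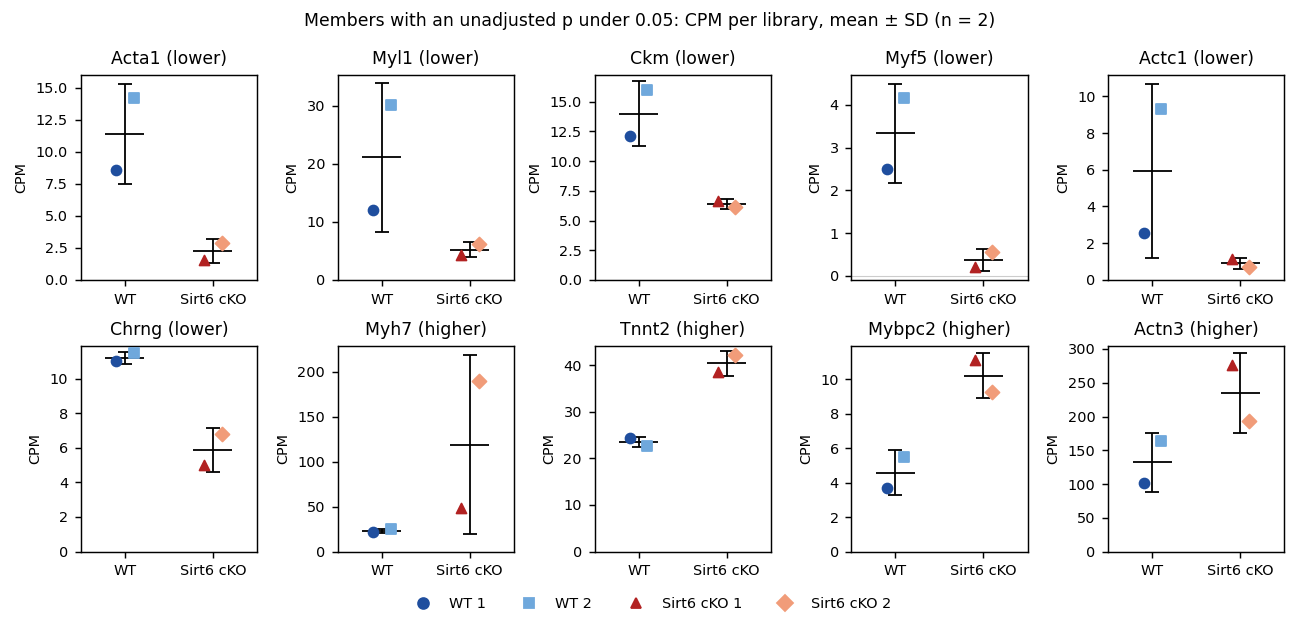
CPM of the 10 members with an unadjusted p under 0.05, 1 panel per gene with its own vertical axis from 0. Points are libraries, horizontal lines the mean and bars the SD (n = 2). The 6 lower genes are highest in WT 2, and *Myh7* is set apart by *Sirt6* cKO 2.

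Of the 8 genes of the acetylcholine receptor and the neuromuscular junction, 1 was lower and the other 7 did not pass the test. The adult receptor is built from alpha1, beta1, delta and epsilon subunits, and the fetal receptor carries gamma in place of epsilon. *Chrng*, the gamma subunit (chromosome 1, 87204657 to 87212694), had 719 and 729 counts in WT against 302 and 436 in *Sirt6* cKO. Mean CPM was 11.2 ± 0.333 in WT and 5.90 ± 1.27 in *Sirt6* cKO (SD, n = 2 each), with a log2 change of -0.93 (SE 0.36). The unadjusted p was 0.048, close to the threshold, and it was missed with each library left out, at -1.20 to -0.72. *Chrne*, the epsilon subunit, had 100 and 72 counts in WT against 115 and 129 in *Sirt6* cKO (0.56, SE 0.80). The ratio of *Chrng* to *Chrne* TPM was 5.96 and 8.43 in WT and 2.19 and 2.80 in *Sirt6* cKO. These do not overlap, and the exact two-sided permutation test gave p = 0.333, the smallest it can give for 2 libraries against 2. *Chrna1*, the alpha1 subunit to which most autoantibodies of myasthenia gravis bind, had 783 and 936 counts in WT against 749 and 846 in *Sirt6* cKO. Its log2 change was -0.06 (SE 0.31), and the libraries overlapped. *Chrnb1*, the beta1 subunit, had 778 and 845 counts in WT, while *Sirt6* cKO 1 had 757 and *Sirt6* cKO 2 had 1758 (0.67, SE 0.45, or -0.04 without *Sirt6* cKO 2). *Chrnd*, the delta subunit, had 654 and 297 counts in WT against 300 and 271 in *Sirt6* cKO (-0.67, SE 0.52), so that WT 1 alone stood apart. The genes that cluster the receptor gave -0.69 for *Rapsn*, -0.68 for *Dok7* and 0.64 for *Musk*, with SEs of 0.75, 0.83 and 0.61.

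None of the 5 genes of excitation and calcium handling (0 genes) passed an unadjusted p of 0.05 in edgeR's test or an adjusted p in DESeq2. *Cacna1s*, the voltage sensor of the muscle membrane and the most abundant of them per length, had 5044 and 5719 counts in WT against 4252 and 5472 in *Sirt6* cKO (log2 change -0.10, SE 0.22). Its exons overlap those of *Gm37759* on the other strand by 1309 bases. *Atp2a1*, the calcium pump of fast fibres, gave 0.35 (SE 0.36), and the release channel *Ryr1* gave -0.23 (SE 0.75) at 0.189 to 0.427 TPM. Exons of *Atp2a1* and *Ryr1* overlap those of genes on the other strand by up to 763 and 864 bases. *Casq1*, which stores calcium, had 5 counts in WT 1 and 207 in WT 2, with 68 and 44 in *Sirt6* cKO between them. Its log2 change was -0.88 (SE 1.64), and that of its cardiac form *Casq2* was -0.11 (SE 0.72). Both were above 0 with the replicate number as a block, at 0.70 and 0.13. Of the energy and oxygen genes, *Ckm*, the creatine kinase of muscle (chromosome 7, 19404776 to 19422841), was lower. Its exons overlap those of *A930016O22Rik* on the other strand by 451 bases. *Ckm* had 791 and 1017 counts in WT against 402 and 391 in *Sirt6* cKO, and the replicates of *Sirt6* cKO were nearly equal. Mean CPM was 14.0 ± 2.76 in WT and 6.38 ± 0.399 in *Sirt6* cKO (SD, n = 2 each), with a log2 change of -1.14 (SE 0.35). It passed the unadjusted p only without WT 1 among the single-library omissions, at -1.35 to -0.92 over all 4. Myoglobin, *Mb*, had 68 and 34 counts in WT against 4 and 47 in *Sirt6* cKO, and its exons overlap genes on the other strand by up to 412 bases.

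**Figure D5:**
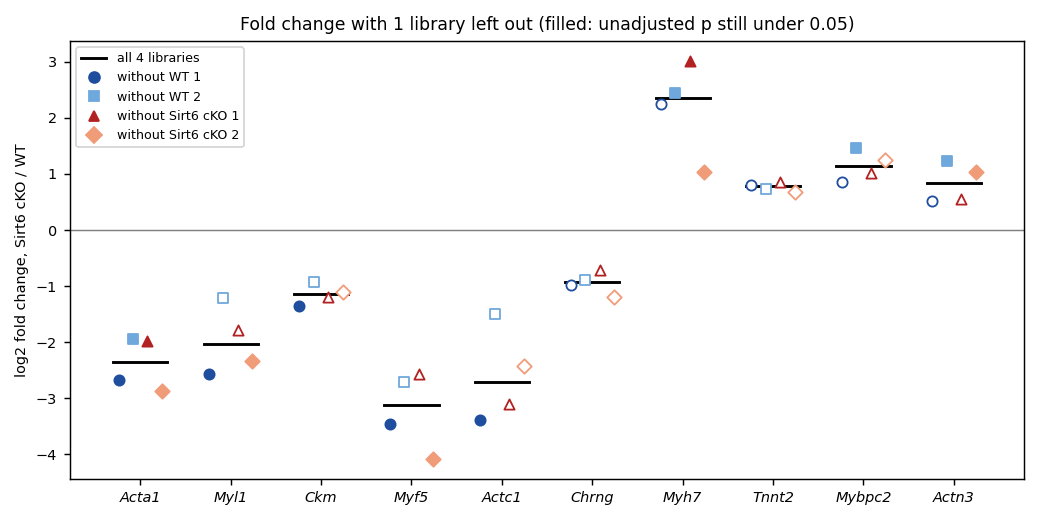
Log2 fold change (vertical axis) of the 10 called members with all libraries (black line) and with 1 library left out (points). Filled points kept an unadjusted p under 0.05. No point crosses 0, and *Acta1* is the only gene with 4 filled points.

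Promoter sequences were read for the called members, because myogenic factors act through E-boxes. RefSeq promoters on GRCm38.p6 were held for 37 of the 47 members, the others being *Myod1*, *Myf6*, *Actn3*, *Neb*, *Tcap*, *Xirp1*, *Tnnt3*, *Tnni2*, *Chrnd* and *Rapsn*. In the 250 bases before the first listed start, the E-box CAGCTG, which reads the same on both strands, was found in 16 of the 37 (43.2%). It was found in 12.8% of the promoters of all 27025 genes held. The looser letters CANNTG, which contain CAGCTG, were in 83.8% of the member promoters and in 66% of all. On either strand, a MEF2 site was in 13.5% against 3.01%, a CArG box in 8.11% against 1.4% and TATAAA in 24.3% against 13%. Of the 6 lower members, 4 had CAGCTG, of the 3 higher members held 1 had it, and of the 28 that were not called 11 had it. The 4 lower genes with the motif are shown with *Tnnt2*, the higher gene that has it, and *Chrne*, the adult counterpart of *Chrng*. The windows follow RefSeq's starts, so that those of *Ckm* and *Chrng* lie inside the longer GENCODE gene, as does that of *Myl1*. The window of *Chrne* overlaps the 5′ end of its GENCODE gene. Each sequence is written 5′ to 3′ on the strand of the gene, with CAGCTG in capitals. The windows are chr8:123894776-123895025 (minus strand) for *Acta1*, chr1:66945057-66945306 (minus strand) for *Myl1*, chr7:19410844-19411093 (plus strand) for *Ckm* and chr1:87205561-87205810 (plus strand) for *Chrng*. Those of the other two are chr1:135836084-135836333 (plus strand) for *Tnnt2* and chr11:70619195-70619444 (minus strand) for *Chrne*.
Acta1: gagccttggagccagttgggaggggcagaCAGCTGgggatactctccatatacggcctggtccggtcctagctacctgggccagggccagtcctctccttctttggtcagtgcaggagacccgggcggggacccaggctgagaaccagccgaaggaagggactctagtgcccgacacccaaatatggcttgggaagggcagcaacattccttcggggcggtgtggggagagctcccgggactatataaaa
Myl1: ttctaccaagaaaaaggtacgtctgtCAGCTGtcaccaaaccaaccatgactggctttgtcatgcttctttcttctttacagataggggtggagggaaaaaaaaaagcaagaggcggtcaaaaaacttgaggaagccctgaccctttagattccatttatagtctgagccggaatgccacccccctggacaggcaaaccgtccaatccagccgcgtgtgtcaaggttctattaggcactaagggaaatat
Ckm: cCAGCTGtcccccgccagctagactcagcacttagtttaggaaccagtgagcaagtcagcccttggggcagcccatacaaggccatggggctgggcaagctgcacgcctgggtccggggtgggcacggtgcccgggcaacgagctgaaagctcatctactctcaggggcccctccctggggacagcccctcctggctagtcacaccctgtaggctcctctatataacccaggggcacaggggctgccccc
Chrng: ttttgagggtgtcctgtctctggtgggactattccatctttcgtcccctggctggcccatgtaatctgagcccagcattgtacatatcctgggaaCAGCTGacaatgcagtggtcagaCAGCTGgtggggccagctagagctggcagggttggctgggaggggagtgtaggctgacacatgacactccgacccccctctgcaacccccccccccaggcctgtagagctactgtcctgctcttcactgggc
Tnnt2: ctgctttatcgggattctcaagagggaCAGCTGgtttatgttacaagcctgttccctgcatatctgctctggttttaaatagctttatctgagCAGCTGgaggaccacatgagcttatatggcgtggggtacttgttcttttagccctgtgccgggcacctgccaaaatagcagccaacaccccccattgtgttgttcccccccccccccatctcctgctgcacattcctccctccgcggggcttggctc
Chrne: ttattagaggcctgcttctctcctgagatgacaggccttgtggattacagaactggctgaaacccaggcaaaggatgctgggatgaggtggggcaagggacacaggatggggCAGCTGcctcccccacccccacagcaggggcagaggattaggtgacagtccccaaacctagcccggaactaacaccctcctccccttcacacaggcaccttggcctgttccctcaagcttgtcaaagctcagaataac
*Chrng* and *Tnnt2* carry the letters at 2 places and the others at 1, so that the motif occurs in promoters of genes of both directions. *Acta1* also holds a CArG box, and *Actc1*, with 0 CAGCTG, holds one as well. A match describes the letters and is not evidence of a bound site.

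A wider list held 90 other muscle genes of the same kinds. All 90 were in the table, of which 85 had enough counts to be tested. Among those, 2 fell and 5 rose at an unadjusted p of 0.05, or 2.35% and 5.88%, where 3.32% and 5.27% of all genes did so. The median log2 change was 0.03, with 41 genes below 0 and 44 above. *Myoz2*, *Lmod2* and *Cav3* had 0 counts in all 4 libraries.

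The lower genes of the wider list were *Cmya5*, which encodes a desmin-binding protein of muscle, and *Fbp2*, the fructose bisphosphatase of muscle. *Cmya5* had 306 and 494 counts in WT against 34 and 101 in *Sirt6* cKO (log2 change -2.54, SE 0.75), and its exons overlap genes on the other strand by up to 2451 bases. *Fbp2* had 948 and 889 counts in WT against 250 and 503 in *Sirt6* cKO (-1.25, SE 0.43). *Cmya5* did not pass the unadjusted p without WT 2 or *Sirt6* cKO 1, and *Fbp2* passed it only without *Sirt6* cKO 2.

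Among the higher genes, *Myom3*, a protein of the M-band, had 369 and 680 counts in WT against 1789 and 1682 in *Sirt6* cKO. Its log2 change was 1.77 (SE 0.41, DESeq2 adjusted p = 0.0126), and it passed the unadjusted p with each library left out. *Srl*, sarcalumenin of the sarcoplasmic reticulum, had 7367 and 8194 counts in WT against 11838 and 13497 in *Sirt6* cKO (0.75, SE 0.18), and also passed with each library left out. *Ache*, the acetylcholinesterase that ends the signal at the junction, had 7916 and 10392 counts in WT against 14147 and 14556 in *Sirt6* cKO (0.70, SE 0.21). It stood at 120 and 167 TPM in WT and 234 and 228 TPM in *Sirt6* cKO, and its mean of 187 TPM was above that of every member, *Actn3* included. *Dmd*, dystrophin, had 650 and 932 counts in WT against 1348 and 1940 in *Sirt6* cKO (1.1, SE 0.35). *Trdn*, which couples the calcium store to its channel, had 579 and 590 counts in WT against 1054 and 1023 in *Sirt6* cKO (0.88, SE 0.30). *Trdn* missed the unadjusted p with any library left out, *Dmd* without WT 1 or *Sirt6* cKO 2, and *Ache* in all but 1 such fit. The smooth muscle and pericyte markers, 8 genes, summed to 894 and 1000 TPM in WT and to 910 and 986 TPM in *Sirt6* cKO. None was at 0. *Rgs5* held most of the sum, with 799 and 854 TPM in WT against 766 and 830 TPM in *Sirt6* cKO. Among the 8, only *Myh11* was called higher, with 23.8 and 36.6 TPM in WT against 70.3 and 69.5 TPM in *Sirt6* cKO. Its log2 change was 1.22 (SE 0.24, DESeq2 adjusted p = 0.0039). Of the 8, 4 had a log2 change above 0 and 4 below. The groups did not overlap for 2 higher genes (*Myh11* and *Cspg4*) and 1 lower gene (*Tagln*).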

How the data were processed

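mTEC libraries of WT and *Sirt6* cKO mice, 2 each, were analysed. Per the labels and the study's methods, reads were trimmed, HISAT2 2.1.0 was used for alignment on mm10 and StringTie 1.3.3 for quantification. Gene annotation and strand setting are not given in the sources used here, so reads of genes that overlap on opposite strands may not be separated. The counts deposited by the authors were raw whole numbers per gene. The TPM values deposited by the authors were StringTie's, and a line with the column total was left out. edgeR 4.0.16 in R 4.3.3 was run on all genes (TMM, filterByExpr with a minimum count of 10 and total of 15, quasi-likelihood test, Benjamini-Hochberg adjustment), with a biological coefficient of variation of 0.557. Standard errors were derived from the F statistic, and CPM used the TMM factors. The lists are described by counts and medians, without a test. Members and lists were chosen with earlier results of these data known. Counts per library are given for the myogenic factors, the receptor subunits, the called members, the 10 members highest in TPM and up to 5 called genes per direction of the wider list. Other genes were named after their values were seen. The alternatives were DESeq2 1.42.0, other scalings and filters, the replicate number as a block, limma 3.58.1 on log2(TPM + 1) and log2(TPM + 0.1), which understates changes of low genes, and each library left out. A group of 1 library was then assumed to vary like the other group. Every pair of libraries differed beyond counting noise (chi-square per gene at least 161.3). The fit was tested on simulated data with known changes. Positions, overlaps and shared words came from the GENCODE M21 annotation of GRCm38, which mm10 also is.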

Additional observations from a re-analysis of the deposited data

How the results depend on the processing

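Deviations of libraries with the same replicate number from their group means correlated at -0.054. With 2 libraries per group both numbers give this same value, which cannot decide whether the libraries were paired. With the number as a block, 2 members were higher in place of 4, while over all genes the higher calls numbered 697 in place of 977, and the median of the wider list was 0.14 in place of 0.03. The wider list had 5 lower genes with DESeq2 and 5 with the TPM filter, which kept 76 of its genes, and 4 with limma at each pseudocount, in place of 2. Over all genes the lower calls were 920, 651, 874 (limma with 1) and 843 (limma with 0.1), in place of 615. With 1 library left out, the lower members numbered 1 to 7 and the higher ones 1 to 3, and the members' median lay between -0.49 and 0.02. The wider list then had 0 to 4 lower genes, 4 to 6 higher ones and a median from -0.07 to 0.27. *Casq1* turned to 0.70 with the block and 0.43 with limma at 0.1, *Casq2* to 0.13 with the block and to 0.05 and 0.11 with limma, and *Tnnt1* from 0.01 to -0.06 with the upper quartile and -0.08 with total counts. With a library left out, signs changed for *Casq1* (-1.87 to 3.53), *Casq2* (-0.73 to 1.0), *Tnnt1* (-0.26 to 0.33), *Myod1* (-1.36 to 1.25), *Mef2c* (-0.30 to 0.87), *Myh2* (-1.53 to 0.01), *Myh3* (-0.22 to 0.80), *Myh8* (-0.06 to 0.59), *Myl4* (-0.59 to 0.22), *Neb* (-0.85 to 0.21), *Ryr1* (-0.95 to 0.24), *Tnni1* (-0.04 to 0.63), *Tnni2* (-0.42 to 0.21), *Chrna1* (-0.22 to 0.10), *Chrnb1* (-0.04 to 1.12), *Cacna1s* (-0.28 to 0.03) and *Des* (-0.58 to 0.25). None of the 10 called members changed sign, and 6 of them (*Myf5*, *Myh7*, *Myl1*, *Acta1*, *Tnnt2* and *Ckm*) kept their unadjusted call in all 8 fits to the 4 libraries. Over its alternatives the adjusted p of *Acta1* ranged from 0.0143 to 0.999. Scaling by the upper quartile or by total counts shifted the median of all genes to -0.09. The causes were not tested.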
